A study of Mus musculus with 8 samples.

Results

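Single barcodes rich in the chemokine transcripts Ccl22 and Ccl17, the profile of mature dendritic cells, were picked out of droplet RNA sequencing of the mouse colonic lamina propria, the connective tissue under the gut epithelium. A barcode stands for the transcripts caught in 1 droplet, and a UMI (unique molecular identifier) for 1 captured transcript. Barcodes qualified with 400 or more genes, a mitochondrial fraction of UMIs under 20% and 5 or more UMIs of Ccl22 and Ccl17 together. They could hold at most 3 UMIs of the macrophage genes C1qa, C1qb and C1qc together, 1 of the T cell genes Cd3e, Cd3d and Cd3g together, 2 of the fibroblast gene Col3a1 and 1 of the B cell gene Cd79a. This left 96 barcodes of the 96721 that passed the gene and mitochondrial limits and of 100673 in all. Because these measured values chose the barcodes, the levels of the chemokines and of the limited genes are given below as a description, without a test.

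The mice were C57BL/6 animals of 10 to 12 weeks, kept free of specific pathogens. They were wildtype or carried a mutation, an amino acid substitution that counts per gene do not show. The series text calls the mutant RORgtS182A and the sample titles S203AKI, and the difference could not be settled from the labels. The epithelial toxin dextran sulfate sodium (DSS) was given at 2% in drinking water for 7 days and followed by 3 days of plain water, while untreated mice drank plain water throughout, and all were taken on day 10. Each of the 4 groups (untreated wildtype, untreated mutant, DSS-treated wildtype, DSS-treated mutant) held 2 libraries, described by the submitters as independent biological replicates. All groups shared an enrichment for CD4 T cells from about 10000 loaded cells, so dendritic cells are a remainder here and every share is a share of the barcodes of the enriched preparation. The libraries held 10340 to 15370 barcodes past the gene and mitochondrial limits, more than the cells loaded. Not every barcode counted need therefore be a captured cell, and the part of this in the shares was not tested.

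Dendritic cells take up antigen in tissues and, once mature, raise the chemokine receptor Ccr7, which guides them along Ccl19 and Ccl21 to lymph nodes. Ccl22 and Ccl17 are neighbouring chemokine genes, and both proteins bind Ccr4, a receptor found on regulatory and other helper T cells. Il12b encodes the chain shared by interleukin-12 and interleukin-23, which drive Th1 and Th17 responses in the gut.

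Ccl22 lies at chr8:94745590-94751699 and Ccl17 at chr8:94810453-94812036, both on the plus strand (GENCODE genes on GRCm38/mm10). The 250 bases before the transcription start of the 2 genes that chose the barcodes, and of the 2 genes that passed the test of DSS further on, are shown 5′ to 3′ from RefSeq (GRCm38.p6). Positions count from the RefSeq start, which for Ccl22 lies 94 bases inside the GENCODE gene, so that its window includes those bases, and for the other genes shown is the GENCODE start. Capitals mark matches, on either strand, to any of 3 motifs: kB (GGGANNNNCC), the ISRE core (GAAANNGAAA) and AP-1 (TGANTCA).
Ccl22 (chr8:94745434-94745683, plus strand): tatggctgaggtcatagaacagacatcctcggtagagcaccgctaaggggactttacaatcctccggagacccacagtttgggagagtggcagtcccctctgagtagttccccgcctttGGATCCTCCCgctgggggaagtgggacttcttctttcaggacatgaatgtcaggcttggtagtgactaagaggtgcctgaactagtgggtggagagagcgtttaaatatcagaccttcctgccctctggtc
Ccl17 (chr8:94810203-94810452, plus strand): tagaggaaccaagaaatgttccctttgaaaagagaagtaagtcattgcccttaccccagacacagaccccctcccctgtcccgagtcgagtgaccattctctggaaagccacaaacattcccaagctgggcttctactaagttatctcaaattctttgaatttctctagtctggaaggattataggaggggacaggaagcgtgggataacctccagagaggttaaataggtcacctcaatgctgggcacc
Cxcl10 (chr5:92348890-92349139, minus strand): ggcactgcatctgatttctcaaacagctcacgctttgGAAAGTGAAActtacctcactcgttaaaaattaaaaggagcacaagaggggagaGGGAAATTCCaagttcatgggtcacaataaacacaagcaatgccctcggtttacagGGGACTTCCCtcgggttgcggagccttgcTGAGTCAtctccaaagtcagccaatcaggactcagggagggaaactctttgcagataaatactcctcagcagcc
Sema7a (chr9:57939862-57940111, plus strand): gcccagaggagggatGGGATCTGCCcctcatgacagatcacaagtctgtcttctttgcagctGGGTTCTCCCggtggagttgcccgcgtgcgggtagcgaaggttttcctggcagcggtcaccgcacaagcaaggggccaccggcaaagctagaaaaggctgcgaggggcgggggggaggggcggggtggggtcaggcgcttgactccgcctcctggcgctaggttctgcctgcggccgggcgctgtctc
The Ccl22 window held 1 kB match, beginning 131 bases before the start, and the Ccl17 window held none of the 3 motifs. The Cxcl10 window held 2 kB matches, 159 and 103 bases before the start, an ISRE core match at 213 bases and an AP-1 match at 74 bases, none overlapping another. The Sema7a window held 2 kB matches, 235 and 188 bases before the start. Of 32536 distinct windows of this length in the RefSeq table, 17.71% held a kB match, 2.978% an ISRE core match and 6.728% an AP-1 match, so a kB match is common. A match is a stretch of letters and not a measured binding site.

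The rule removed barcodes in steps. Ccl22 and Ccl17 reached 5 UMIs in 261 barcodes, of which 216 met the C1q limit, 108 also the Cd3 limit, 102 also the Col3a1 limit and 96 all limits. At the chemokine threshold, 14 barcodes had exactly 5 UMIs and 10 of them (71.4%) held a UMI of Ccr7 or Fscn1, while 16 barcodes with the same limits but 4 UMIs fell outside and 12 of those (75%) did. In the barcodes without either chemokine the share was 18.7% of 27942. No barcode sequence of the 96 appeared in another library, against 21 to 64 shared barcode sequences between any pair of libraries. Only 6 of the 96 were on the authors' own list of kept cells, and 7 held a Cd4 UMI.

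Total UMIs ranged from 34497509 to 46960005 per library. The 96 barcodes were deeper than the rest, with library medians of 4324 to 7679.5 UMIs against 1886 to 3019 over all barcodes passing the limits. In the order untreated wildtype, untreated mutant, DSS-treated wildtype, DSS-treated mutant, the libraries held 19 and 16, 16 and 14, 6 and 11, and 9 and 5 of them. Their summed UMIs were 100313 to 114905 in untreated and 27903 to 62224 in DSS-treated libraries. Values per library therefore rest on 5 to 19 barcodes, and 1 UMI in the smallest library is worth 35.8 CPM, the unit used for levels below (UMIs of a gene scaled to the same total UMIs in every library).

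The label of mature dendritic cells was checked against genes outside the rule. Ccr7 was found in 80 of the 96 barcodes, and its summed level was 1780 and 975 CPM in the untreated wildtype, 2446 and 1685 in the untreated mutant, 4193 and 2909 in the DSS-treated wildtype and 2400 and 4871 in the DSS-treated mutant libraries. Fscn1, which bundles the actin of dendrites, stood at 381 and 131, 759 and 299, 1290 and 932, and 284 and 2230 CPM in the same order. Both genes were present in each library. Conventional dendritic cell barcodes, defined by class II and dendritic cell genes with at most 1 UMI of Ccl22 and Ccl17, had median levels of 504 CPM for Ccr7 and 25.7 for Fscn1, both under those of the 96. Fscn1 was found in 0.275 to 1.12% of T cell barcodes (library median depths 2320 to 3474 UMIs), which should lack it, and in 31 of the 96. The T cell class was limited to at most 1 UMI of Ccl22 and Ccl17, so chemokine-rich barcodes with Cd3 were outside it. A Ccr7 UMI was found in 18.5 to 35.2% of the T cell barcodes, so it is weaker ground for the label.

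**Figure D1:**
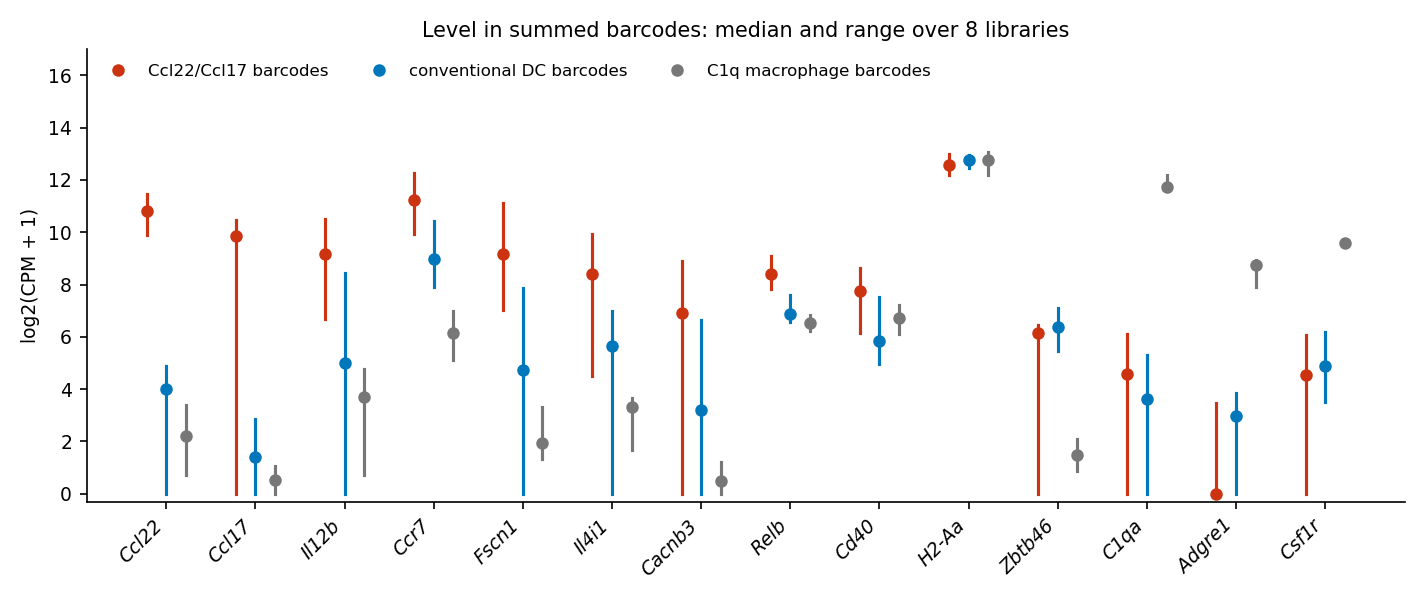
Levels of 14 genes as log2(CPM + 1) of UMIs summed per library, with the point at the median and the line over the range of 8 libraries, in Ccl22/Ccl17, conventional dendritic cell and C1q macrophage barcodes. Ccr7, Fscn1 and Il12b lie highest in the Ccl22/Ccl17 barcodes, the class II gene H2-Aa is alike in all 3 classes, and Adgre1 and C1qa lie highest in macrophages. Ccl22, Ccl17 and C1qa were set by the rule, and H2-Aa and Zbtb46 entered the choice of the conventional dendritic cell barcodes.

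By the ratio to conventional dendritic cell barcodes, the 15 leading genes among 971 at 50 CPM or more in every library of the Ccl22/Ccl17 barcodes were Ccl22, Il12b, Fscn1, Ly75, Pik3r1, Procr, Nudt9, Bcl2a1a, Ccr7, Arl5c, Cd40, Tspan3, Cd63, Slc7a11 and Bcl2a1b. The log2 ratio ran from 6.79 for Ccl22 to 1.78 for Bcl2a1b. Ly75 is the endocytic receptor DEC-205, Cd40 receives T cell help, and Bcl2a1a and Bcl2a1b, near-identical copies whose reads may be split between them, belong to the Bcl2 survival family. The minimum was set in these barcodes alone, so it admits genes that are high in them. The ratios describe how the barcodes were picked and were not tested.

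Some genes of several other cell types were at 0 in the summed UMIs: the neutrophil genes S100a8, S100a9 and Retnlg, the mast cell or basophil genes Cpa3 and Mcpt8, the glial gene S100b, the plasmacytoid gene Siglech, the Langerhans gene Cd207 and the B cell gene Ms4a1. Other members of some lists were detected. Outside the rule, the lists summed to 0 to 19.0 CPM for neutrophil, 0 to 19.0 for Langerhans and 0 to 21.8 for B cell genes. The 4 plasmacytoid genes summed to 9.48 to 49.8 CPM in untreated and 21.8 to 143 in DSS-treated libraries. Their median in conventional dendritic cell barcodes was 131. Endothelial genes summed to 0 to 19.9, columnar epithelial to 0 to 28.4, squamous to 0 to 35.8 and fibroblast to 0 to 47.4 CPM. The macrophage genes outside the rule, Mrc1, Adgre1 and Csf1r, summed to 0 to 110 CPM, against a median of 1780 in macrophage barcodes. Plasma cell genes stood out. Jchain and Mzb1 summed to 56.9 to 349 CPM in 6 libraries but to 4561 and 923 in the untreated wildtype libraries, where 1 barcode each carried nearly all of it, as given with the genotype comparison. Those 2 barcodes thus held plasma cell transcripts beside the chemokines. The T cell genes outside the rule summed to 0 to 143 CPM, and the monocyte genes Ly6c2, Ccr2 and Plac8 to 226 to 538 in untreated and 215 to 1166 in DSS-treated libraries, against a median of 829 in conventional dendritic cell barcodes.

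The 2 chemokines did not always occur together. Ccl22 was found in 93 barcodes (median 6 UMIs, 0 to 78) and Ccl17 in 57 (median 2, 0 to 69). Both were present in 54 barcodes, Ccl22 alone in 39 and Ccl17 alone in 3. Of the 54, 41 came from untreated and 13 from DSS-treated mice, and of the 39, 21 and 18.

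Per library, Ccl22 stood at 1181 and 949 CPM in the untreated wildtype, 1640 and 2083 in the untreated mutant, 2831 and 1993 in the DSS-treated wildtype and 2204 and 1235 in the DSS-treated mutant libraries. Ccl17 stood at 1419 and 975, 711 and 1156, 860 and 193, and 1200 and 0 CPM in the same order. The untreated and DSS-treated ranges overlapped for both, and DSS-treated mutant replicate 2 held no Ccl17 UMI in its 5 barcodes. In T cell barcodes, a Ccl22 UMI occurred in 0.0273 to 0.412% and a Ccl17 UMI in 0.0458 to 0.179%. That class allowed at most 1 UMI of the 2 chemokines together, so its definition partly set these low shares. Their receptor gene Ccr4 was found in none of the 96 barcodes and in 6.77 to 12.3% of the T cell barcodes of a library.

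**Figure D2:**
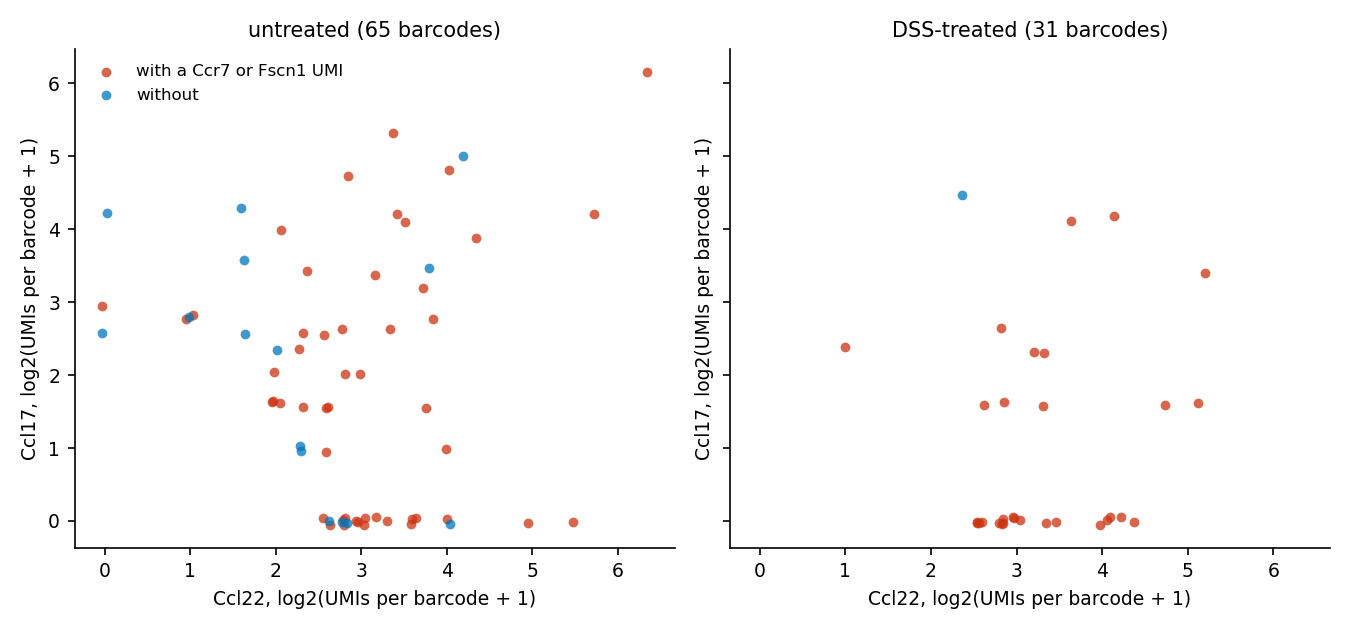
Ccl17 against Ccl22 as log2(UMIs + 1), 1 point per barcode with a small random shift, for 65 untreated and 31 DSS-treated barcodes, coloured by a Ccr7 or Fscn1 UMI. Many barcodes lie on the line without Ccl17, few lie on the line without Ccl22, and 1 DSS-treated barcode lacks Ccr7 and Fscn1 against 15 untreated ones.

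Other genes were counted in barcodes with both chemokines and in barcodes with Ccl22 alone, which had median depths of 5717.5 and 6082 UMIs but, as given above, a different mix of untreated and DSS-treated mice. Fscn1 was found in 22.2% of the former and 46.2% of the latter, Cacnb3, a calcium channel subunit of mature dendritic cells, in 13.0% and 48.7%, and Cd200, an inhibitory ligand, in 16.7% and 48.7%. The lectin genes Mgl2 and Cd209a, markers of type 2 dendritic cells, ran the other way, at 25.9% and 7.69% for Mgl2 and 24.1% and 5.13% for Cd209a. Il12b was at 42.6% and 43.6%. Among untreated barcodes alone, Fscn1 was found in 9 of 41 with both chemokines and 6 of 21 with Ccl22 alone. These shares lay closer together for Fscn1, Cacnb3 and Cd200 than in all barcodes. They were 14.6% and 23.8% for Cacnb3, 17.1% and 33.3% for Cd200, 29.3% and 14.3% for Mgl2, and 26.8% and 9.52% for Cd209a. Among DSS-treated barcodes, 13 and 18, they were 23.1% and 66.7% for Fscn1, 7.69% and 77.8% for Cacnb3, and 15.4% and 66.7% for Cd200. Mgl2 and Cd209a were each at 15.4% and 0% in DSS-treated barcodes. Il12b was at 39.0% and 42.9% in untreated and at 53.8% and 44.4% in DSS-treated ones. These barcodes are not replicates and the chemokines had chosen them, so the shares carry no test.

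Markers of both dendritic cell lineages were present. A UMI of Xcr1 or Clec9a, which mark type 1 dendritic cells specialised in cross-presentation, was found in 26 barcodes and a UMI of Cd209a or Mgl2 in 19, with 2 counted in both, and 53 had neither. In the T cell barcodes of a library, which should lack these genes, an Xcr1 UMI was found in 0.191 to 0.533%, a Clec9a UMI in 0.0547 to 0.460%, a Cd209a UMI in 0.0547 to 0.504% and an Mgl2 UMI in 0.0547 to 0.359%. For the genes counted beside them, the T cell shares were 9.74 to 14.7% for Irf4, 5.85 to 8.26% for Irf8, 0.793 to 2.72% for Cxcl9, 0.641 to 1.34% for Cacnb3 and 3.25 to 8.64% for Cd200, at the lower depths given above. Of the 26, 22 held Irf8, the factor of the type 1 lineage, 0 held Irf4, 14 held Il12b and 15 Cxcl9. Of the 19, 16 held Ccl17, 5 Irf4, 4 Irf8 and 4 Il12b, while none held Cacnb3 or Cd200. With so few barcodes, the Irf4 count is not read as expression above the T cell share. Of the 53 with neither, 49 held Ccr7, 26 Fscn1, 27 Cd200, 36 Irf8, 23 Il12b and 10 Cxcl9. Irf8 and Il12b were thus not confined to barcodes with Xcr1 or Clec9a. Fscn1 was found in 4 of the 26 and 1 of the 19, Ccr7 in 20 and 12, and Cd200 in 2 of the 26. The 16 barcodes without Ccr7 or Fscn1 held no Cacnb3 or Cd200 UMI, and 1 of them held Il12b. For Fscn1 and Cd200 the label of mature dendritic cells thus rests mostly on the 53, and it is weaker for the others. The 26 were deeper (median 8104.5 UMIs) than the 19 (5193) and the 53 (5066), which raises the chance of any UMI.

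Among cytokines, Il12b was found in 41 barcodes, 40 of which also held Ccr7 or Fscn1. Its summed level was 914 and 357 CPM in the untreated wildtype, 796 and 140 in the untreated mutant, 502 and 1462 in the DSS-treated wildtype and 655 and 103 in the DSS-treated mutant libraries, with broad overlap. It is 1 gene with levels set by few barcodes, since the richest barcode carried 28.6 to 79.1% of a library's Il12b UMIs. T cell barcodes held an Il12b UMI in 0 to 0.206%. The partner chains Il12a, for interleukin-12, and Il27 were at 0, Il23a was found in 2 barcodes, and Ebi3, which pairs with Il27, in 30, against an Ebi3 UMI in 1.47 to 5.96% of T cell barcodes. At these depths an absent UMI does not show an absent transcript.

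Il1b, the inflammasome cytokine, was found in 77 barcodes at 1509 to 4669 CPM, without a difference between untreated (2795 ± 781 CPM, SD, n = 4) and DSS-treated libraries (2929 ± 1592) in the edgeR test (log2 difference 0.04 ± 0.36, SE). The chemokine Ccl5 was found in 43 barcodes, at 705 to 1595 CPM in untreated libraries and at 35.8, 884, 829 and 1029 CPM in DSS-treated ones. T cell barcodes held an Il1b UMI in 2.40 to 12.1% and a Ccl5 UMI in 13.1 to 33.2%. Ccl19, itself a ligand of Ccr7, was at 0.

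The share of these barcodes was compared between treatments. It was 0.143 and 0.134% of the barcodes passing the limits in the untreated wildtype, 0.152 and 0.127% in the untreated mutant, 0.0554 and 0.0820% in the DSS-treated wildtype and 0.0586 and 0.0484% in the DSS-treated mutant libraries. All 4 DSS-treated libraries lay below all 4 untreated ones. The means were 0.0611% ± 0.0146 (SD, n = 4) with DSS and 0.139% ± 0.0107 without, a difference of -0.0779 percentage points with an exact two-sided permutation p of 0.0286, the smallest that 4 libraries against 4 can give. Adjusted by Benjamini-Hochberg over the 2 comparisons of the share, p was 0.0571, which misses the threshold of 0.05. Exact (Clopper-Pearson) 95% intervals for single libraries, which cover counting error only, overlapped, for example 0.0863 to 0.224% for untreated wildtype replicate 1 and 0.0409 to 0.147% for DSS-treated wildtype replicate 2.

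**Figure D3:**
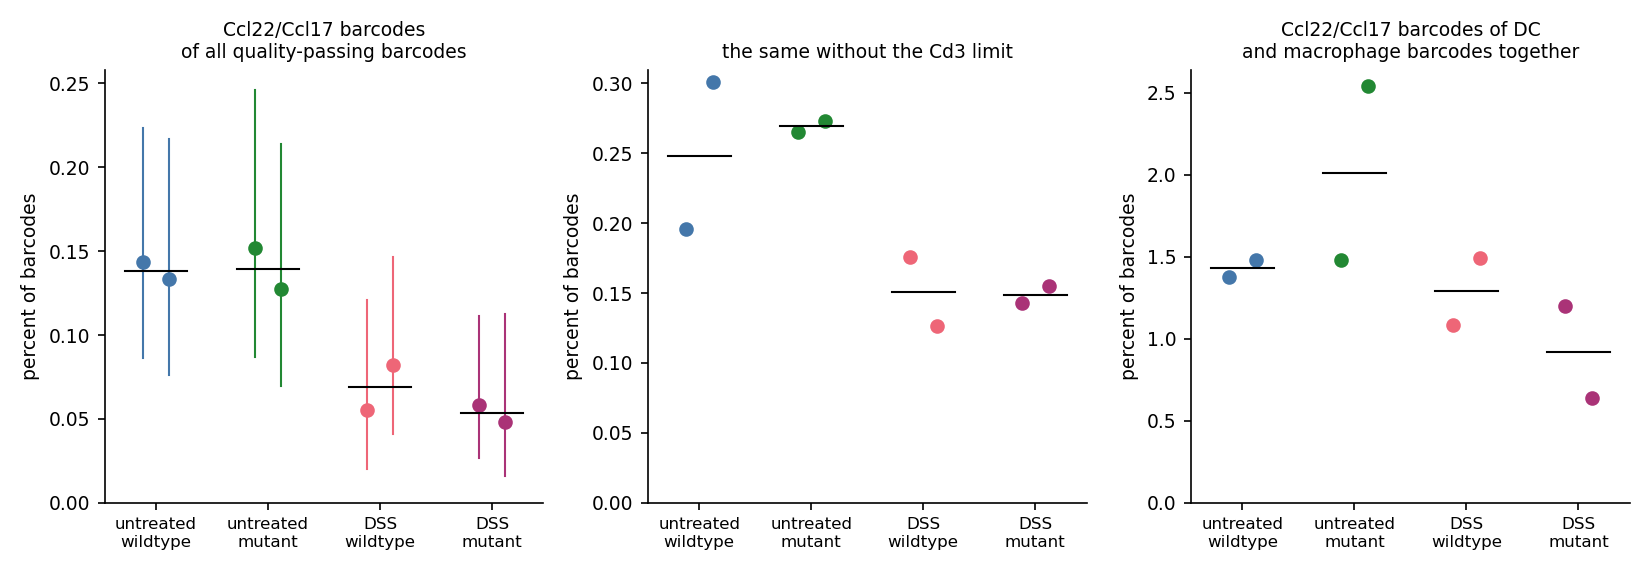
Percent of barcodes per library by group, with group means as bars and, in the first panel, exact 95% intervals: Ccl22/Ccl17 barcodes of all barcodes passing the limits, the same without the Cd3 limit, and as a percent of dendritic cell and macrophage barcodes together. The 4 DSS-treated libraries lie below the 4 untreated ones in the first and second panel and overlap them in the third.

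The denominator mattered. Of barcodes with at most 1 Cd3 UMI, the difference was -0.146 points (exact permutation p = 0.0286). Of the Ccl22/Ccl17, conventional dendritic cell and macrophage barcodes together, the share was 1.38, 1.48, 1.48 and 2.54% in untreated and 1.08, 1.49, 1.20 and 0.639% in DSS-treated libraries, which overlapped (exact permutation p = 0.114). Conventional dendritic cell barcodes were also at 0.291 to 0.418% in untreated and 0.0870 to 0.328% in DSS-treated libraries, and macrophage barcodes at 4.59 to 9.89% and 4.50 to 7.44%. Median depth was 2248 to 3019 UMIs in untreated and 1886 to 2818 in DSS-treated libraries. With every library thinned to a median of 1886 UMIs before the rule, an alternative chosen after seeing the data, the difference was -0.0656 points (exact permutation p = 0.0286). The part of the CD4 enrichment in the difference was not tested.

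Between genotypes the shares overlapped within each treatment. The mean was 0.0965% ± 0.0509 (SD, n = 4) in mutant and 0.104% ± 0.0419 in wildtype libraries, a difference of -0.00708 points with an exact two-sided permutation p of 0.771 (0.771 adjusted over the 2 comparisons). With 2 libraries against 2 no exact test within a treatment can pass the threshold, and none was made.

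The question of how DSS altered expression in these barcodes was asked with edgeR's quasi-likelihood test on UMIs summed per library, over both genotypes. Sema7a rose and Cxcl10 fell, and no other gene passed. These were 2 of 1544 genes tested (0.13%) at a Benjamini-Hochberg adjusted p under 0.05. DESeq2 called 1, Cxcl10.

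Cxcl10 (chr5:92346638-92348889, minus strand) encodes an interferon-induced chemokine that draws Cxcr3-bearing T cells. It stood at 371 and 505 CPM in the untreated wildtype, 341 and 299 in the untreated mutant, 0 and 16.1 in the DSS-treated wildtype and 87.3 and 0 in the DSS-treated mutant libraries. All untreated libraries were high, all DSS-treated ones low, and the ranges did not overlap. The log2 fold change was -3.90 ± 0.59 (SE, edgeR adjusted p = 0.0288), between means of 379 ± 88.9 and 25.8 ± 41.7 CPM (SD, n = 4). The counts behind it were small: 39, 58, 36 and 30 UMIs in untreated and 0, 1, 4 and 0 in DSS-treated libraries, and 1 barcode carried 16, 41, 21 and 13 of the untreated ones. T cell barcodes stood at 79.9 to 124 CPM of Cxcl10 in untreated and 47.2 to 80.8 in DSS-treated libraries, with a Cxcl10 UMI in 8.42 to 15% of them. The level in the Ccl22/Ccl17 barcodes was above this background in all 4 untreated libraries and in 1 of the 4 DSS-treated ones (87.3 against 77.8 CPM in mutant replicate 1).

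The Cxcl10 UMIs of untreated mice lay mostly in barcodes without Ccr7 or Fscn1. These 15 barcodes held 128 UMIs, spread over 11 of them, while the 50 with Ccr7 or Fscn1 held 35 UMIs in 8. After DSS, 30 of 31 barcodes had Ccr7 or Fscn1, and 4 of those held 5 Cxcl10 UMIs. The median depths in untreated mice were 7551 and 6568 UMIs. With the comparison limited to barcodes with Ccr7 or Fscn1, Cxcl10 was too low to be tested. Fewer barcodes of 1 kind and less RNA per barcode cannot be told apart in such sums.

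Sema7a (chr9:57940112-57962865, plus strand) encodes a membrane-anchored semaphorin that binds integrins and plexin C1. It stood at 38.1 and 26.1 CPM in the untreated wildtype, 75.9 and 110 in the untreated mutant, 143 and 257 in the DSS-treated wildtype and 349 and 515 in the DSS-treated mutant libraries. Each DSS-treated library was above each untreated one. The log2 fold change was 2.37 ± 0.40 (SE, edgeR adjusted p = 0.0450), between means of 62.4 ± 38.0 and 316 ± 157 CPM (SD, n = 4). Only 77 UMIs in 34 barcodes support it, 3 to 11 per untreated and 4 to 16 per DSS-treated library, and 1 of the 34 barcodes lacked both Ccr7 and Fscn1. T cell barcodes held a Sema7a UMI in 0.997 to 2.68%, at 3.60 to 6.31 CPM in untreated and 4.37 to 7.12 in DSS-treated libraries.

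Both calls depended on the setting. Cxcl10 passed in 4 of 6 other settings in which it could be tested (adjusted p from 1.34e-07 to 0.909) and lost the call without DSS-treated wildtype replicate 1 (0.164) or replicate 2 (0.252). Sema7a passed in 2 of 7 (0.0145 to 0.909). It kept the call when DSS-treated mutant replicate 1 (0.00207) or replicate 2 (0.0169) was left out and lost it without any other single library (0.0671 to 0.465). Both kept their direction in each of these. The log2 fold change of Cxcl10 ran from -4.19 to -2.88 over settings and from -6.44 to -3.57 with 1 library left out, and that of Sema7a from 1.87 to 2.42 and from 1.98 to 2.50.

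**Figure D4:**
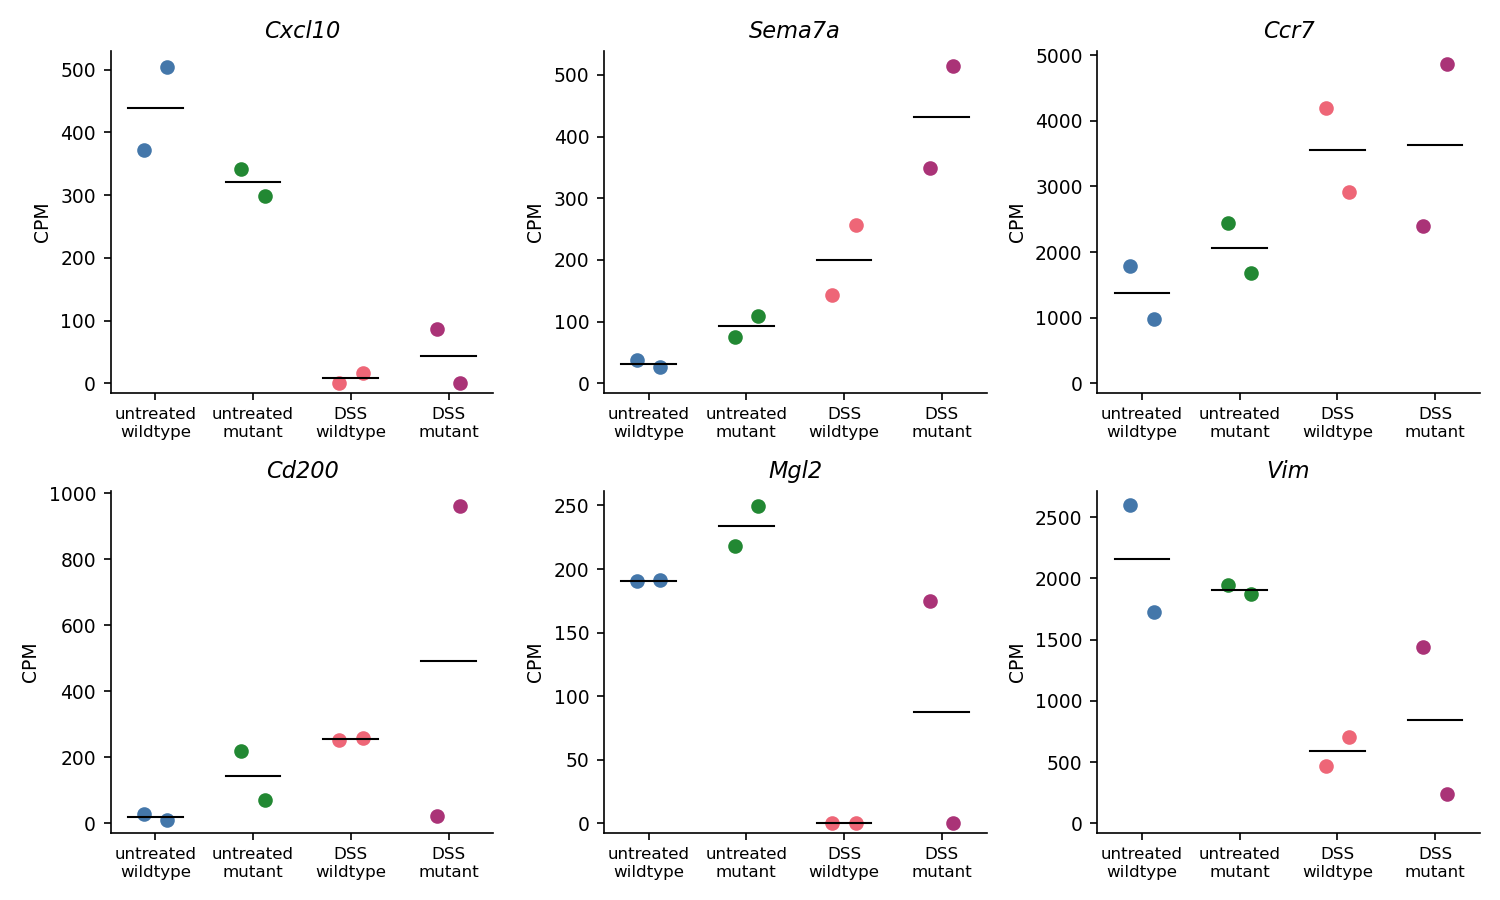
CPM of 6 genes in the Ccl22/Ccl17 barcodes, 1 point per library with group means as bars. Cxcl10 and Sema7a passed the test of DSS over both genotypes, while Ccr7, Cd200, Mgl2 and Vim did not, and the DSS-treated mutant libraries lie far apart for Ccr7, Cd200, Mgl2 and Vim.

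Among 24 mature dendritic cell genes, 22 were tested and none passed after adjustment. At an unadjusted p under 0.05, 6 were higher and 1 lower after DSS, against 4.99% of all genes higher and 4.53% lower. The list's median log2 difference was 0.52, with 17 of 22 above 0, against -0.01 over all genes. By genotype, 20 of 22 were above 0 in wildtype (median 0.86) and 12 of 22 in mutant mice (median 0.28). For the interaction 18 of 22 were below 0 (median -0.68, against -0.04 over all genes), 2 of them lower unadjusted, against 2.2% of all genes, and none adjusted. The 24 genes summed to 10539 and 25282 CPM in the DSS-treated mutant libraries and to 17776 and 15219 in the DSS-treated wildtype ones. Untreated libraries held 6762 to 13569 CPM. The mutant and interaction values thus average 1 library within the untreated range and 1 that was the highest of all. Ccr7 differed by 1.03 ± 0.30 (SE, edgeR adjusted p = 0.259), and its lowest DSS-treated library (2400 CPM) lay under the highest untreated one (2446). The values for Fscn1 were 1.59 ± 0.55 (adjusted p = 0.335), for Cacnb3 2.02 ± 0.67 (adjusted p = 0.335) and for Tbc1d4, a Rab GTPase-activating protein, 1.55 ± 0.46 (adjusted p = 0.264). The list was chosen with earlier results of these data known.

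Ccr7 and Fscn1, both members of this list, were also counted per barcode, which is the same data and no separate support. Thinned to 1000 UMIs each, with no barcode left out, a mean of 57.1% ± 8.29 (SD, n = 4) held 1 of them in untreated libraries and 94.9% ± 5.89 in DSS-treated ones, with 50 to 68.8% against 88.9 to 100% over libraries. The exact permutation p was 0.0286, and 0.857 adjusted over the 30 tests of 15 features by treatment and by genotype, of which 0 passed adjusted and this 1 unadjusted. A single feature at the smallest possible p could not pass over 30 tests. Without thinning the means were 75.9% and 97.2% (exact permutation p = 0.0571). Ccr7 was at 236 to 440 CPM in untreated and 568 to 1384 in DSS-treated conventional dendritic cell barcodes, and at 147 to 161 and 181 to 256 in T cell barcodes.

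Ligands for T cells gave no call. Of 4 co-stimulatory ligands tested, 1 was higher unadjusted, against 4.99% of all genes: Cd86, the ligand of Cd28, at 181, 287, 104 and 239 CPM untreated and 502, 354, 545 and 343 after DSS. These ranges did not overlap, and the log2 difference was 1.07 ± 0.36 (SE, edgeR adjusted p = 0.335). Of 5 inhibitory ligands or regulators tested, Cd200 was higher unadjusted, at 28.6, 8.70, 218 and 69.8 against 251, 257, 21.8 and 961 CPM. The Cd200 ranges overlapped, since DSS-treated mutant replicate 1 held 1 UMI (log2 difference 2.59 ± 0.80, adjusted p = 0.312). Cd274, the PD-1 ligand, was at 206 ± 46.5 and 320 ± 102 CPM (SD, n = 4).

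All 9 tested members of the class II list had log2 differences below 0 after DSS, with a median of -0.60, 3 of them lower at an unadjusted p under 0.05 (4.53% of all genes) and none after adjustment. Cd74, the invariant chain, was at 17261, 20800, 20879 and 17695 CPM untreated and at 12758, 10880, 17543 and 5900 after DSS, with overlapping ranges and a log2 difference of -0.74 ± 0.29 (SE, edgeR adjusted p = 0.411). The class I list, also with 9 tested, had a median of -0.01 and none past the unadjusted threshold, and the difference between the lists was not tested. CPM values of a library sum to a fixed total, so these values are relative to the other genes.

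Chemokines other than those of the rule gave 3 of 7 tested lower unadjusted, against 4.53% of all genes: Cxcl10, Ccl9 and Cxcl9. Ccl9 was at 114, 296, 114 and 169 CPM untreated and 0, 0, 21.8 and 34.3 after DSS, without overlap (log2 difference -4.69 ± 0.91, SE, edgeR adjusted p = 0.0858). Cxcl9 was at 1019, 505, 180 and 618 CPM untreated but at 0, 0, 1353 and 0 after DSS, so that DSS-treated mutant replicate 1 alone held it. The 6 interferon response genes tested gave none past the unadjusted threshold.

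The lists of dendritic cell lineage genes gave no call after adjustment. Of 6 conventional dendritic cell genes tested, 3 lay above 0 after DSS (median log2 difference 0.11) and 2 were lower unadjusted, and of 7 type 1 genes 3 lay above 0 (median -0.25) and 1 was lower, against 4.53% of all genes. Only 2 type 2 genes could be tested, both below 0 and 1 of them lower unadjusted. The type 2 marker Mgl2 was at 190, 191, 218 and 249 CPM untreated and at 0, 0, 175 and 0 after DSS, again with UMIs in 1 DSS-treated library alone (log2 difference -4.06 ± 0.94, SE, edgeR adjusted p = 0.143). Irf8, which is on both of the first lists, was at 695, 548, 540 and 778 CPM untreated and 394, 337, 371 and 309 after DSS, without overlap (-0.91 ± 0.30, adjusted p = 0.335).

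Of 9 tested genes of the LIM, lamin, annexin and S100 list, 4 were lower unadjusted, against 4.53% of all genes, with a median of -0.80. Vim, the intermediate filament vimentin, was at 2599, 1723, 1944 and 1874 CPM untreated and 466, 707, 1440 and 240 after DSS, without overlap (log2 difference -1.53 ± 0.40, SE, edgeR adjusted p = 0.180). The 15 NF-kB genes gave none past the unadjusted threshold in either direction, with a median of 0.04. Rel, for example, was at 1541 to 2504 CPM in all 8 libraries. The 8 tested genes of the receptors and factors upstream of STAT5 and STAT6, which include the receptors for GM-CSF and interleukin-4, likewise gave none, with a median of 0.44.

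Gm42418, a transcript model that overlaps ribosomal RNA sequence, was singled out after its values were seen. It took 20576 to 35018 CPM of the untreated and 38533 to 64027 of the DSS-treated libraries of these barcodes (log2 difference 0.96 ± 0.19, SE, edgeR adjusted p = 0.0858). In conventional dendritic cell barcodes it was at 13978 to 31094 CPM in untreated and 32876 to 58132 in DSS-treated libraries, also without overlap. It was also at 28241 to 46960 and 53547 to 74764 CPM in T cell barcodes, and at 37520 to 59393 and 27766 to 49209 in macrophage barcodes. Its part in the results after DSS was not tested.

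Within single genotypes, edgeR's fit of all 8 libraries called no gene for DSS. In wildtype, 0 of 1544 genes (0%) passed in edgeR, 132 were past 0.05 before adjustment, and 3 passed in DESeq2, the immunoglobulin genes Igkc, Igha and Jchain treated under the genotype comparison. A fit of only the 4 wildtype libraries, filtered anew and so not over the same 1544 genes, called 15 genes. The 9 lower after DSS were Cxcl10, Cxcl9, Mgl2, Vim, S100a10, Lyz2 and the same 3 immunoglobulin genes, which 2 barcodes carry, and the 6 higher were Cd200, Fabp5, Ramp3, Tbc1d8, Ifitm1 and Ncoa7. In mutant, 0 passed in edgeR, 79 unadjusted and 0 in DESeq2. Cxcl10 differed by -5.13 ± 0.91 (SE, edgeR adjusted p = 0.0708) in wildtype and -2.68 ± 0.73 (adjusted p = 0.607) in mutant, and Sema7a by 2.67 ± 0.62 and 2.07 ± 0.51. The interaction of DSS and genotype gave 0 of 1544 genes (0%) in edgeR, 61 unadjusted (1.75% of genes with a higher and 2.2% with a lower value) and in DESeq2 3, the same immunoglobulin genes. Its estimates were 2.45 ± 1.45 for Cxcl10 and -0.59 ± 0.78 for Sema7a, neither past the threshold.

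The DSS effect was then compared with that in other classes of the same libraries, with the library as a block. Against conventional dendritic cell barcodes, 0 of 1910 genes (0%) differed in edgeR, with 107 past 0.05 before adjustment, and the lowest adjusted p was 0.156. Cxcl10 was at 226 to 672 CPM in untreated and 45.3 to 424 in DSS-treated conventional dendritic cell barcodes, a log2 difference of the effects of -2.18 (edgeR adjusted p = 0.781). Sema7a was at 26.6 to 57.0 and 15.3 to 84.7, a difference of 1.71 (adjusted p = 0.781). The effects on these 2 genes were thus not shown to be particular to the Ccl22/Ccl17 barcodes among dendritic cells.

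Against C1q macrophage barcodes, the effect of DSS differed for 46 of 7547 genes (0.61%), 14 with a more positive and 32 with a more negative effect in the Ccl22/Ccl17 barcodes. Cxcl10 led, at 206 to 458 CPM in untreated and 332 to 851 in DSS-treated macrophage barcodes, a log2 difference of the effects of -4.59 (edgeR adjusted p = 3.14e-13). Sema7a was at 6.33 to 10.7 and 1.88 to 10.1 CPM in macrophages, a difference of 2.82 (adjusted p = 0.000466). The fit gave each gene 1 dispersion for both classes, with 505 to 1312 macrophage and 5 to 19 Ccl22/Ccl17 barcodes per library. These p-values therefore do not measure the spread among the Ccl22/Ccl17 sums alone. Ccl9 (-3.87), the chemokine Ccl4 (-4.26), the lipopolysaccharide co-receptor Cd14 (-1.97) and Lmna (-2.24) were among those with a more negative effect. In the Ccl22/Ccl17 barcodes, Cd14 was at 123 to 270 CPM in untreated and 0 to 305 in DSS-treated libraries. Lmna was at 85.3 to 453 and 0 to 129 CPM, so the ranges of both overlapped. Ccl4 rested on 42 UMIs in 11 of these barcodes. The called genes Igkc (-2.20), Jchain (-2.45) and Igha (-1.97) also had a more negative effect. Single barcodes carried most of their UMIs in the Ccl22/Ccl17 barcodes: 3680 of 4247, 463 of 621 and 797 of 1142. The comparison was not run without the Jchain-rich barcodes given with the genotype comparison. Il17a likewise had 19 of its 32 UMIs in 1 barcode. Gm42418 (1.13, edgeR adjusted p = 1.36e-05) was among the genes with a more positive effect. The count of genes that differed was 8 for barcodes with at least 10 chemokine UMIs and 19 for those with Ccr7 or Fscn1.

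Between genotypes in untreated mice, 3 of 1544 genes (0.194%) passed, all immunoglobulin genes lower in the mutant. Igkc was at 35437 and 3394 CPM in wildtype and 104 and 269 in mutant libraries, Igha at 7893 and 1706 against 85.3 and 89.7, and Jchain at 4465 and 853 against 56.9 and 110. The groups did not overlap, and edgeR's adjusted p was 0.00971, 0.00840 and 0.0256. A single barcode in each wildtype library carried nearly all of it, with 3680 of 3722 and 371 of 390 Igkc UMIs, 797 of 829 and 177 of 196 Igha UMIs, and 463 of 469 and 92 of 98 Jchain UMIs. Without these 2 barcodes, the only ones of the 96 with 10 or more Jchain UMIs, 0 genes passed in edgeR, and the log2 difference of Jchain went from -5.00 to 0.47. That setting was chosen after seeing the data.

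Heat-shock genes ran higher in the untreated mutant libraries. Of 10 tested, all had log2 differences above 0 and 9 passed the unadjusted threshold, with a median of 1.44 against -0.00 over all genes, of which 2.01% were higher and 1.1% lower unadjusted. None passed after adjustment in edgeR. The 11 genes summed to 5760 and 9321 CPM in untreated wildtype, 14403 and 18921 in untreated mutant, 8243 and 8341 in DSS-treated wildtype and 9470 and 7513 in DSS-treated mutant libraries. The untreated mutant libraries were the highest, without overlap. Hspa1a, the inducible chaperone, was at 28.6 and 17.4 CPM in untreated wildtype and 1489 and 189 in untreated mutant libraries (log2 difference 5.11 ± 1.04, SE, edgeR adjusted p = 0.0929), with 70 and 54 of the 157 UMIs of untreated mutant replicate 1 in 2 barcodes. DESeq2 called 6 genes in this comparison, the 3 immunoglobulin genes lower and Hspa1a (adjusted p = 0.000535), Hspa1b and Serpinb1a, a protease inhibitor gene, higher in the mutant.

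The same order appeared in other barcodes of these libraries. The sum was 9591 and 14758 CPM in untreated wildtype and 22709 and 23299 in untreated mutant conventional dendritic cell barcodes, 9956 and 15104 against 28520 and 30276 in macrophage barcodes, and 9144 and 13819 against 23455 and 23550 in T cell barcodes. Handling of the libraries and genotype cannot be told apart in this design.

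**Figure D5:**
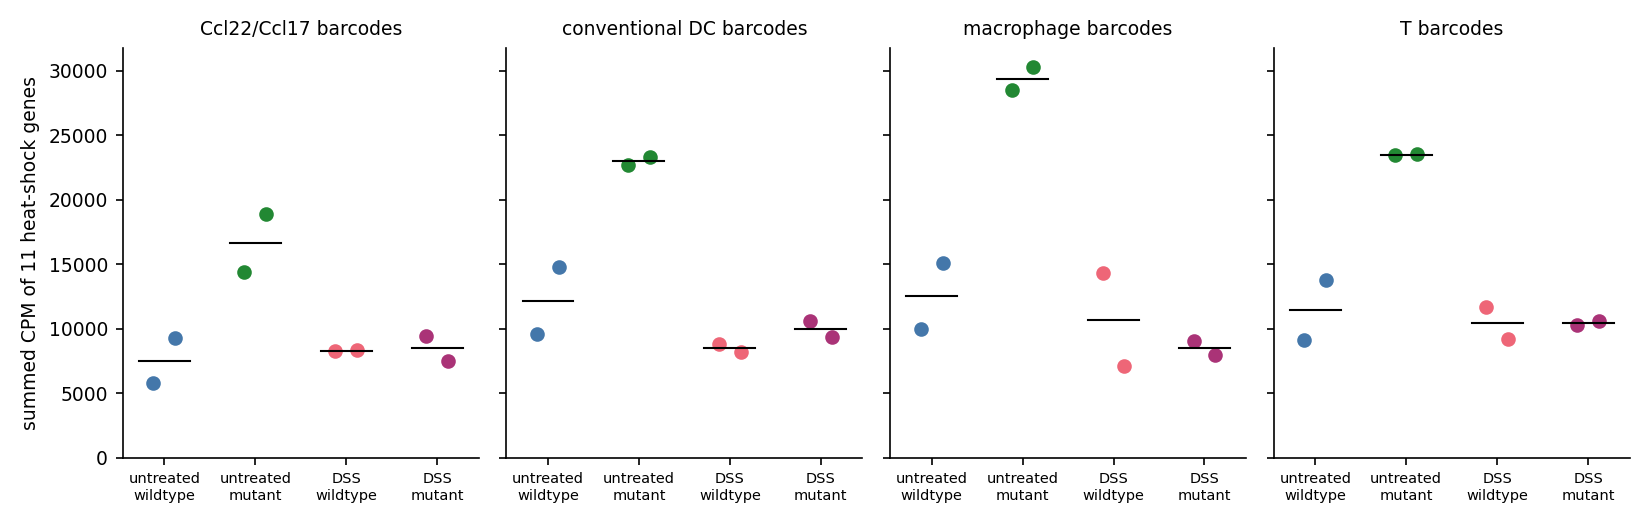
Summed CPM of 11 heat-shock genes per library, 1 point per library with group means as bars, in 4 classes of barcodes. The untreated mutant libraries are the highest in each class, and in Ccl22/Ccl17 barcodes they sit at 14403 and 18921 CPM.

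After DSS, 0 of 1544 genes (0%) differed between genotypes in edgeR, with 58 at an unadjusted p under 0.05 (2.01% of genes higher and 1.75% lower) and 0 in DESeq2. Among 22 mature dendritic cell genes, 2 were lower in the mutant unadjusted and none higher, with a median log2 difference of -0.07. In untreated mice the same list had all 22 differences above 0 with a median of 0.46, and none passed even unadjusted.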

How the data were processed

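UMIs were counted in 8 single-cell libraries and the authors deposited 1 table of raw counts per library, with a gene list and a list of kept cells. Per the submitters' processing notes, Cell Ranger 3.1.0, Seurat 4.0.1 and mm10 were used. How the kept cells were chosen is not given in the sources used here. In 7 tables the rows carried no gene names and took those of the deposited list of 31053 symbols. Of 30934 identifiers of the remaining table found in a reference of gene names, 30468 (98.5%) had the listed symbol, and log row sums correlated at r of at least 0.975 across genes, against at most 0.318 with rows shifted.

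Groups came from the sample titles. Counts of the chosen barcodes were summed per library and tested in edgeR 4.0.16 (TMM, filterByExpr, quasi-likelihood, Benjamini-Hochberg over all genes tested), with all 8 libraries in 1 fit, after tests on simulated data. DESeq2 1.42.0 was an alternative. CPM values are counts summed over a library's barcodes of a class and scaled to 1 common total. Shares were compared by exact permutation over libraries (SciPy 1.17.1). Nothing beyond the submitters' statement says that the replicates came from separate animals, and p-values measure the spread between libraries. In the comparisons of the DSS effect between classes, edgeR estimated that spread over both classes together. Genes of the rule were left out of the tests, and some genes of the lists are not reported here.

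Conventional dendritic cell barcodes met the same limits with Ccl22 and Ccl17 at most 1, at least 10 UMIs of H2-Aa, H2-Ab1 and H2-Eb1, at least 2 of Flt3, Zbtb46, Cd209a, Xcr1 and Clec9a, and no Siglech. Macrophage barcodes had at least 10 C1q UMIs with the same chemokine, Cd3, Col3a1 and Cd79a limits. T cell barcodes had at least 3 Cd3 UMIs with the same chemokine, C1q, Col3a1 and Cd79a limits. Chemokine-rich barcodes with Cd3 were thus left out of the T cell shares of every gene. No doublet caller was run. The limits on other lineages can remove doublets, but how many they removed was not tested. Barcodes above 2 times the median UMIs were left out in an alternative. Named genes are those of the gene lists, genes called without overlap, and the 15 leading the ratio to conventional dendritic cells. Gm42418, Il17a, Serpinb1a and the genes called only in the fit of the wildtype libraries fall outside this rule and were chosen after their values were seen. The members and lists were chosen with earlier results of these data known.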

Additional observations from a re-analysis of the deposited data

Results flagged for a closer look

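The limit on T cell genes set aside as many barcodes as it left. Of the barcodes with at least 5 UMIs of Ccl22 and Ccl17 and C1q within its limit, 108 exceeded 1 Cd3 UMI and entered no comparison of expression above, 62 from untreated and 46 from DSS-treated mice. They came from every library, 6 to 22 in each. Their median depth was 10230.5 UMIs against 5795.5 in the 96, and their median Cd3 count was 6 UMIs. Ccr7 was found in 96 of them (88.9%), Il12b in 42 (38.9%), at least 10 class II UMIs in 104 (96.3%) and Cd4 in 68 (63.0%), against Cd4 in 7 (7.29%) of the 96. With the Cd3 limit dropped and the Col3a1 and Cd79a limits kept, which some of the 108 do not meet, the share differed by -0.109 percentage points between DSS-treated and untreated libraries (exact permutation p = 0.0286, 4 libraries against 4), an alternative chosen after seeing the data. The means were 0.150% with DSS and 0.259% without, a ratio of 0.580, against a ratio of 0.439 under the full rule.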

How the results depend on the processing

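The DSS difference in the share of barcodes kept its sign in every alternative. Alternatives were judged on the unadjusted p, which was 0.0286 for the difference as reported and does not pass once adjusted (0.0571). The unadjusted p was above 0.05 for barcodes with Ccr7 or Fscn1 (-0.0468 points, exact permutation p = 0.0571), for barcodes on the authors' list (-0.00829, p = 0.114) and as a percent of dendritic cell and macrophage barcodes (-0.615, p = 0.114). With any 1 library left out it ran from -0.0849 to -0.0737, and 3 against 4 libraries cannot give an exact p below 0.0571. The genotype difference in the share turned positive on the authors' list (0.00100), as a percent of dendritic cell and macrophage barcodes (0.105), without the Cd3 limit (0.00935) and for some left-out libraries (-0.0255 to 0.00897). Counts of called genes moved widely. Without a filter on low counts more genes were tested. The counts were then 19 for DSS in wildtype, 14 in mutant and 44 over both genotypes. For genotype they were 13 and 1 in untreated and DSS-treated mice, with 5 for the interaction and 12 against conventional dendritic cells. DESeq2 gave 3, 1, 6 and 3 for DSS in wildtype, DSS over both genotypes, genotype in untreated mice and the interaction. At least 10 chemokine UMIs gave 3, 0 and 2 for DSS in wildtype, over both genotypes and the interaction, and 8 against macrophages, with DSS-treated mutant replicate 2 left without a barcode and out of the fit. Limiting the barcodes to Ccr7 or Fscn1, or excluding other lineages more strictly, gave 0 for DSS over both genotypes and 0 for genotype in untreated mice, and the former 19 against macrophages. The latter count was also 0 without barcodes above 2 times the median UMIs and without the 2 Jchain-rich barcodes, which left 1 for DSS over both genotypes. A fit of only the 4 libraries compared, with its own filter and set of genes tested, called 15 genes for DSS in wildtype. With 1 library left out the ranges were 0 to 23, 0 to 46 and 0 to 110 for DSS in wildtype, mutant and both, 0 to 8 and 0 to 5 for genotype in untreated and DSS-treated mice, 0 to 14 for the interaction, and 0 to 4 and 25 to 74 against dendritic cells and macrophages. Without DSS-treated mutant replicate 1, 2620 genes were tested, because the lone library left in its group is a smaller group for the filter. The smallest group falls to 1 library whichever library is left out. That lone library is assumed to vary like the other groups. The cause of the shifts in the counts of called genes was not tested. The sign of Jchain between genotypes was positive under stricter exclusion (0.47) and without the 2 barcodes (0.47). No fit of expression was run on the authors' list alone, since it held 6 of the barcodes. A replicate block was tried for the genotype comparisons, chosen after seeing the data, on the 4 pairs of neighbouring numbers in the titles. No label says what these numbers mark, be it an animal, a litter or a day. Deviations from group means correlated at 0.103 and 0.0326 across genes in the untreated and DSS-treated pairs. The counts were 1 (Igha) for untreated mice, 0 after DSS and 0 for the interaction. DSS was not compared this way, since each pair lies within 1 treatment.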
